A study of Homo sapiens with 38 samples.

Results

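C4-2B is a human prostate cancer cell line derived from LNCaP, and a region of 7p15.2 that carries risk variants was removed from it here by genome editing. The 3 deletion lines, called m, ld9 and le5, were set against 3 control lines, numbered 1 to 3, by RNA-seq. Each line had 3 libraries, so the comparison rests on 18 of the 38 samples of the series, chosen by the line named in their labels. All 6 lines carry the label genome editing, the deletion lines with the genotype of the removed risk region and the control lines with the genotype wild type. Cells grew in RPMI 1640 medium with fetal bovine serum. Per the labels, C4-2B is tetraploid and the deletion was made in steps: cells were electroporated with 1 of 2 pairs of guide RNAs, sorted as single cells and grown into colonies, and 2 colonies with the most deleted alleles were edited again with another guide pair and selected with puromycin. This gave 3 full-deletion clones, 1 from the first guide pair and 2 from the other. Which of m, ld9 and le5 belongs to which pair, and how the control lines were made, is not given in the sources used here. Each deletion line is therefore a clone, and the 3 libraries of a line are repeats of that clone.

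HOX genes encode homeodomain transcription factors that specify position along the body axis, and the genes of the HOXA cluster are ordered along 7p15 in the order of their domains of use. HOXA13, at the end of the cluster, acts in the most posterior structures, among them the urogenital tract from which the prostate arises. JAZF1, a zinc finger gene on the same arm, has been linked to prostate cancer risk by association studies. The study's title names a risk element that acts as a repressive loop on HOXA13, and looping of this kind is commonly held by the protein CTCF. The RefSeq promoter of HOXA13 (GRCh38.p14, chr7:27200042-27200341, minus strand, 250 bases before to 50 after the gene's start) is shown because HOXA13 is the gene the deletion was designed around.
HOXA13: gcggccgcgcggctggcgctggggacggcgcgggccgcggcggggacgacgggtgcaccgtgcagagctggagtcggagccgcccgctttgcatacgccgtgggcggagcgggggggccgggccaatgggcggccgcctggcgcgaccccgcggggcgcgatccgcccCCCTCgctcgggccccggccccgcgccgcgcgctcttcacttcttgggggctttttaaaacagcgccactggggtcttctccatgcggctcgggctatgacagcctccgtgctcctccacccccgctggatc
The capitals mark CCCTC, the letters that CTCF is named for, which are not its binding motif. They were searched on both strands and found 1 time in these 300 bases. Of 35116 RefSeq promoters of the same length, 71.2% hold it, so its presence does not set this promoter apart.

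The values are TPM, each gene's length-corrected share of a library's transcripts, which carry no depth, so the read depth behind each value is unknown. The label was checked against markers of prostate cell types, and all 10 luminal markers were expressed: in deletion and control lines, FOXA1 averaged 307 and 285 TPM, and KLK3, which encodes prostate-specific antigen, 3007 and 2452 TPM. The 10 luminal markers summed to between 5602 and 6854 TPM in deletion lines and between 3638 and 5712 TPM in control lines. Defining markers of other cell types were low. KRT5 and TP63 of basal cells were under 1 TPM in all lines, but KRT14, also basal, averaged 2.62 and 2.47 TPM in deletion and control lines. INSM1 was at 0 in all 18 libraries. The 4 neuroendocrine markers summed to at most 0.827 TPM in a deletion line and 1 TPM in a control line, while COL1A1 kept 9.66 and 10.7 TPM. Some less specific markers were expressed: the integrin gene ITGA6, listed as basal, averaged 13.3 and 10.3 TPM in deletion and control lines, and ENO2, listed as neuroendocrine, averaged 3.56 and 5.52 TPM. Library 1 of control line 3 stood furthest from the rest. Mitochondrially encoded genes took 12.5% to 15.8% of TPM in the 9 deletion libraries, against 28.4% here and 10.8% to 16.6% in the remaining control libraries. Between 14619 and 14841 genes reached 1 TPM in deletion libraries, against 13661 in this one. Libraries 2 and 3 of control line 3 were also off, to a lesser degree, with 14335 and 14543 genes at 1 TPM. Their 10 most abundant genes held 20.01% and 16.2% of TPM, against at most 14.9% in any library of the other lines. The median gene's deviation from the 6-line mean was 0.03 to 0.05 in deletion lines (log2), against -0.24 in control line 3. The main results that rest on library 1 or on control line 3 are given with and without it. Leaving out library 1 alone keeps libraries 2 and 3, so it does not remove all of this departure.

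HOXA13 was expressed at about 1 TPM in every line. Its line means were 0.937, 0.973 and 0.983 TPM in deletion lines m, ld9 and le5, against 1.39, 1.64 and 0.807 TPM in control lines 1, 2 and 3. Over libraries, the lowest, median and highest values were 0.78, 0.96 and 1.16 TPM in deletion lines and 0.76, 1.13 and 1.99 TPM in control lines. The deletion lines sat close together, below control lines 1 and 2 and above control line 3, so the groups overlapped. The log2 fold change of TPM + 1, deletion minus control, was -0.19 ± 0.18 (SE, 3 lines against 3), with a 95% interval of -0.61 to 0.23. An exact two-sided permutation test over the 20 arrangements of the 6 lines gave p = 0.4, where 0.1 is the smallest p that 3 against 3 allows. The adjusted p over all genes was 0.993 (limma). In the authors' deposited table, whose sample design is not given in the sources used here, HOXA13 was lower in deletion lines by a log2 fold change of -0.52 with an adjusted p of 0.00626. Without control line 3, the fold change computed here was -0.35, with an adjusted p of 0.45.

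The other HOXA cluster genes lay mostly on the other side of 0. Of 17 cluster genes and transcripts, 11 passed the filter on low values or were kept by name. Of these, 10 had a log2 fold change above 0, as had 66.3% of all 14821 genes tested. The list median was 0.33, against 0.07 over all genes. Without control line 3 the list median was 0.10. None passed the test over all genes (0% of genes tested did), and 1 had an unadjusted p under 0.05, against 3.57% of all genes. That transcript was HOTAIRM1, a noncoding RNA from the start of the cluster. It had 2.99, 4.58 and 3.82 TPM in deletion lines m, ld9 and le5, against 2.83, 1.83 and 2.02 TPM in control lines 1 to 3, so every deletion line was above every control line (log2 fold change 0.58 ± 0.19, unadjusted p = 0.0192, adjusted p = 0.993, limma). HOXA10, the cluster's most abundant gene here, had 55.3, 37.9 and 39.7 TPM in deletion lines, against 42.1, 33.9 and 26.1 TPM in control lines. Deletion line m held the highest value and ld9 and le5 lay below control line 1, so these groups overlapped, with a log2 fold change of 0.39 ± 0.22. HOXA11 had 6.55, 6.88 and 6.17 TPM in deletion lines, against 6.14, 5.95 and 3.45 TPM in control lines, a log2 fold change of 0.33 ± 0.21. Those means do not overlap, but the libraries of le5, at 6.01 to 6.25 TPM, lie within those of control line 1, at 5.83 to 6.5 TPM. HOXA11-AS, transcribed from the opposite strand, had 8.99, 10.3 and 8.44 TPM in deletion lines, against 8.23, 10.96 and 5.31 TPM in control lines. The libraries were stranded per the labels, but whether the counting used the strand is not stated. The values of HOXA11-AS and HOXA11 may therefore share reads.

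Control line 3 was also the lowest line for HOXA5, HOXA6, HOXA7 and HOXA3 of the anterior and middle cluster. HOXA5 had 7.00, 9.26 and 7.64 TPM in deletion lines, against 9.68, 5.45 and 3.32 TPM in control lines. HOXA6 had 4.43, 4.50 and 4.29 TPM in deletion lines, against 4.37, 4.14 and 1.44 TPM in control lines. HOXA4 was lowest in control line 2, at 1.1 TPM, and HOXA3 in control line 3, at 0.297 TPM. HOXA9 averaged 1.20 ± 0.39 TPM in deletion lines and 1.10 ± 0.18 TPM in control lines (SD, n = 3 lines each). HOTTIP, a noncoding RNA beside HOXA13, was below the filter at 0.284 ± 0.072 TPM in deletion lines and 0.404 ± 0.091 TPM in control lines (SD, n = 3 lines each). JAZF1 had 1.24, 1.31 and 1.46 TPM in deletion lines, against 1.143, 1.69 and 0.667 TPM in control lines, and its groups overlapped (exact permutation p = 0.7). The authors' deposited table called 3 of the 15 cluster genes it lists with an adjusted p higher (HOTAIRM1, HOXA10 and HOXA11) and 1 lower (HOXA13), where it called 4.34% of all genes higher and 4.22% lower.

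**Figure D1:**
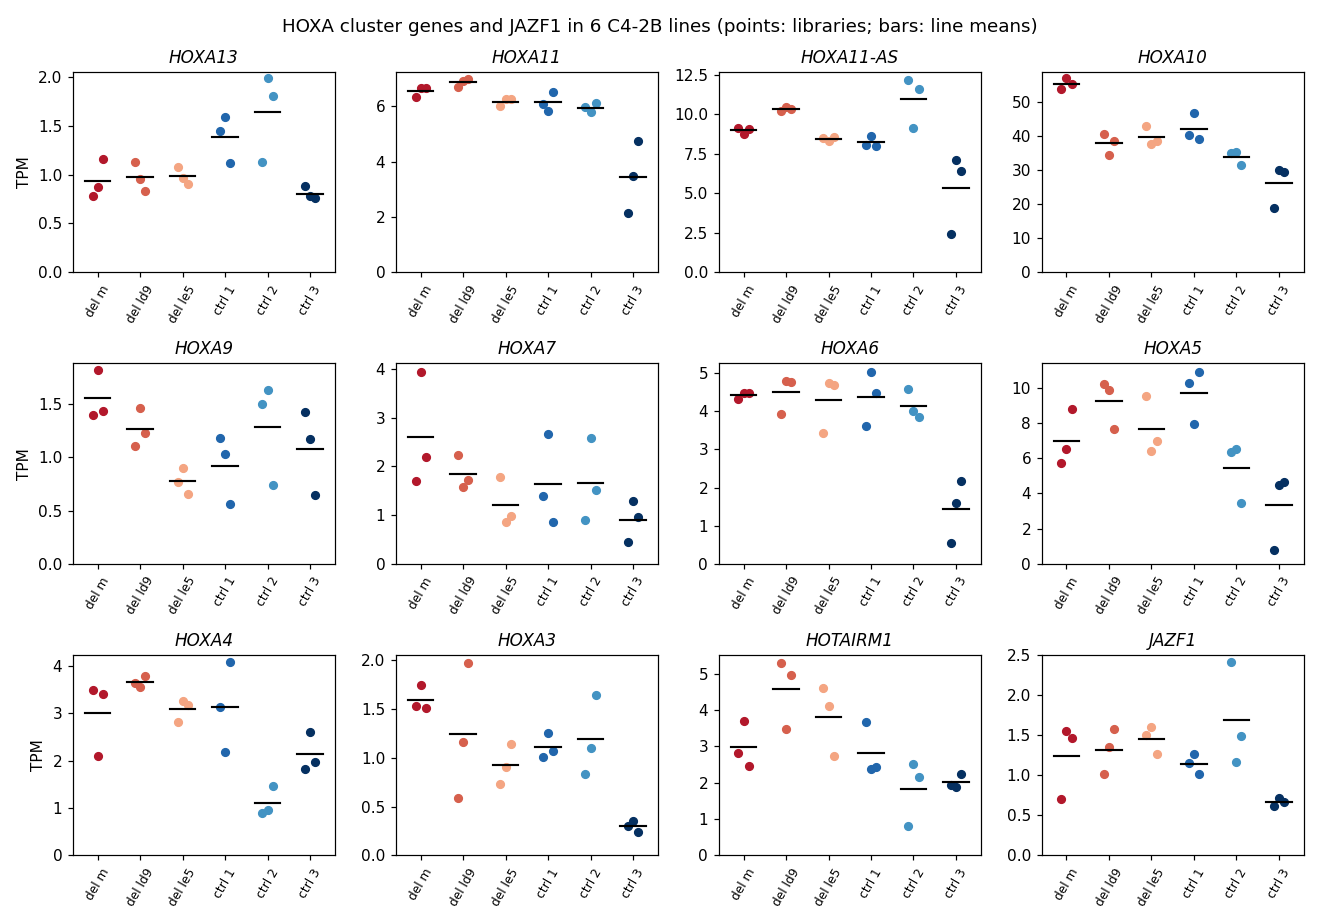
TPM of 11 HOXA cluster genes and JAZF1 in the 3 deletion lines (left, red) and 3 control lines (right, blue); points are libraries and bars are line means. HOXA13 sits near 1 TPM in all deletion lines and in control line 3, while control line 3 is the lowest line for HOXA5, HOXA6, HOXA10 and HOXA11.

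Control lines 2 and 3 were low along the distal part of 7p, to about the HOXA cluster. When the 14821 genes were placed on chromosome arms by RefSeq, 88.9% found a place, and each line's deviation from the 6-line mean was taken, less that line's median over all genes. In blocks of 20 neighbouring tested genes, the 6 blocks from the tip of 7p down to the block that ends at HOXA13 lay between 0.05 and 0.24 in the deletion lines. The same 6 blocks lay between -0.37 and -0.19 in control line 2 and between -0.44 and -0.18 in control line 3. In the next 4 blocks, from HOXA13 to the centromere, the deletion lines ranged from -0.08 to 0.08, control line 2 from -0.18 to 0.06 and control line 3 from -0.11 to 0.30. Control line 2 was at -0.15 or lower in 7 of the 10 blocks of 7p, so it had a low block past HOXA13 too. Over the 120 tested genes from the tip to HOXA13, the medians were 0.12, 0.15 and 0.12 in deletion lines m, ld9 and le5, against 0.14, -0.25 and -0.27 in control lines 1, 2 and 3. Over the 98 genes past HOXA13 they were -0.04, 0.00 and 0.03 in deletion lines, against 0.00, 0.03 and 0.00 in control lines.

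The step lay within control lines 2 and 3 and not between the arms. At 114 of the 120 genes, control lines 2 and 3 averaged below the other 4 lines, with a median gap of -0.41, and at 82 of them (68.3%) both were below all 4. Both were below all 4 at 7.14% of the genes past HOXA13 and at 7.47% of all genes tested. Without library 1 of control line 3 the median gap was -0.39. The HOXA cluster is near the end of the low stretch, and its genes did not all share it. In control line 2, HOXA13, HOXA9 and HOXA11-AS were above control line 1. When each line's median over the whole of 7p was taken off, the log2 difference of HOXA13, deletion minus control, was -0.42, that of HOXA10 was 0.16, that of HOXA11 was 0.10 and that of HOTAIRM1 was 0.35. On this scale HOXA13 was at -0.20, -0.23 and -0.19 in deletion lines, against 0.03, 0.40 and 0.20 in control lines, without overlap. The median taken off included each line's shift over all genes. In control line 3 it was -0.41, where the all-gene median was -0.24. Log2(TPM + 1) understates shifts of a gene near 1 TPM, so the step can overcorrect HOXA13 and part the groups by itself. This step was added after the values were seen and has no test. Among the neighbours of the cluster, CBX3, a heterochromatin protein gene, had 373, 463 and 447 TPM in deletion lines, against 398, 322 and 254 TPM in control lines. Its neighbour HNRNPA2B1, an RNA-binding protein gene, had 857, 973 and 959 TPM in deletion lines, against 875, 789 and 636 TPM in control lines. Of 19 neighbour genes listed, 11 were tested, and none passed the test. Of the 11, 9 lay above 0, where 66.3% of all genes did, with a list median of 0.25. AGR2, a secretory-pathway disulfide isomerase gene nearer the tip, had 23.3, 70.8 and 77.3 TPM in deletion lines, against 19.2, 11.9 and 6.62 TPM in control lines. All its deletion lines were above all its control lines (log2 fold change 2.04 ± 0.51, unadjusted p = 0.00465, adjusted p = 0.993, limma), and m lay far nearer the control lines than ld9 and le5 did. What part the low stretch has in these differences was not tested.

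**Figure D2:**
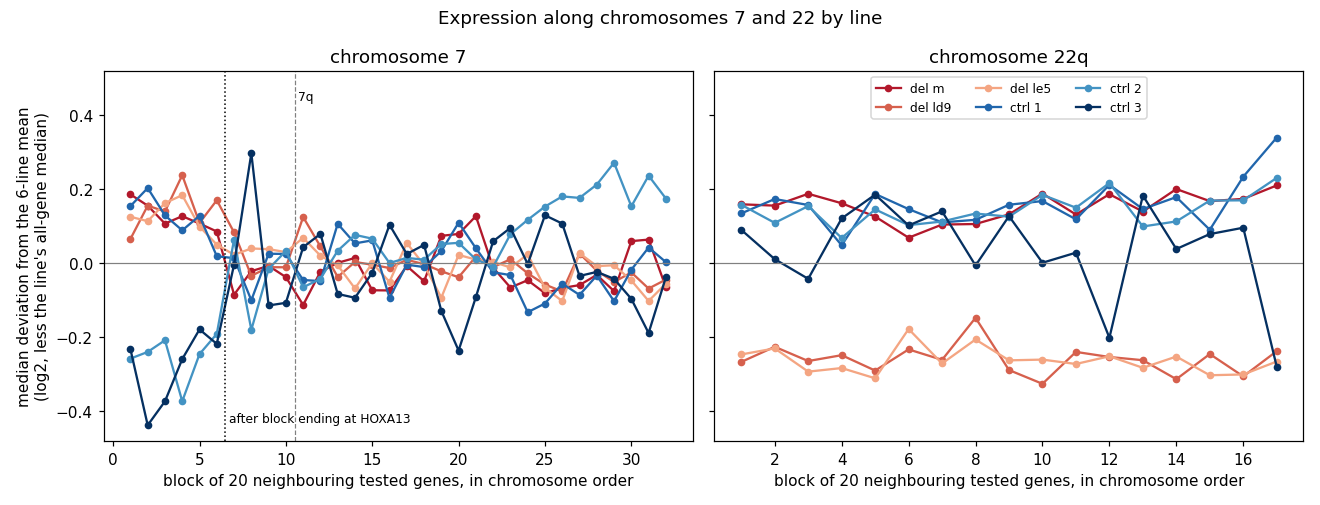
Median deviation from the 6-line mean (log2, less the line's median over all genes) in blocks of 20 neighbouring tested genes along chromosomes 7 (left) and 22q (right), 1 line per C4-2B line. Control lines 2 and 3 lie at -0.18 or lower in the 6 blocks up to HOXA13 and between -0.18 and 0.30 after it, and deletion lines ld9 and le5 lie at -0.15 or lower in 16 and 17 of the 17 blocks of 22q.

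On 22q the deletion lines split, with ld9 and le5 low and m not. Over the 350 tested genes of 22q, the medians were 0.16, -0.25 and -0.27 in deletion lines m, ld9 and le5, against 0.17, 0.14 and 0.05 in control lines 1, 2 and 3. Lines ld9 and le5 were both below the other 4 lines at 228 genes (65.1%), against 11.2% of all genes tested, with a median gap of -0.39. In 16 of the 17 blocks of 22q the value was -0.15 or lower in ld9, and it was in all 17 in le5. EIF3D, a translation initiation factor gene on 22q, had 251, 191 and 196 TPM in deletion lines, against 267, 281 and 301 TPM in control lines. SNU13, a spliceosome protein gene, had 227, 164 and 158 TPM in deletion lines, against 274, 260 and 224 TPM in control lines, and MRPL40, a mitochondrial ribosome gene, had 81.0, 65.4 and 64.4 TPM, against 95.5, 94.1 and 85.2 TPM. In each, m lay well above ld9 and le5, and for SNU13 it was above control line 3.

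Control line 3 was low over 6p, which holds the MHC and histone genes. The median of the 391 tested genes there was 0.06, 0.06 and 0.07 in deletion lines m, ld9 and le5, against -0.29 in control line 3, where 18 of 19 blocks were at -0.15 or lower. Control line 3 had the most uneven blocks of the 6 lines, with 87 of 639 at -0.15 or lower and 65 at 0.15 or higher, against 5 to 17 low blocks and 3 to 13 high blocks in deletion lines. Along 4q from TIGD2 to the tip, the median of 201 genes was 0.03, 0.10 and 0.09 in deletion lines, against -0.29 in control line 3. Without library 1 the medians of control line 3 were -0.28 on 6p and -0.40 on 4q. Over the 41 arms with at least 20 tested genes, the 3 deletion lines and the 3 control lines overlapped on all but 4q in these centred values, and on every arm in the values as deposited. On 4q the deletion lines were at 0.01, 0.08 and 0.06, against 0.01, 0.00 and -0.15 in control lines. Several genes of low p on these arms separate the arms nonetheless. INPP4B, a phosphoinositide phosphatase gene on 4q, had 12.4, 12.1 and 11.9 TPM in deletion lines, against 8.19, 6.51 and 8.74 TPM in control lines. ZFAND3, a zinc finger gene on 6p, had 56.3, 69.9 and 68.3 TPM in deletion lines, against 47.9, 46.7 and 45.6 TPM in control lines.

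**Figure D3:**
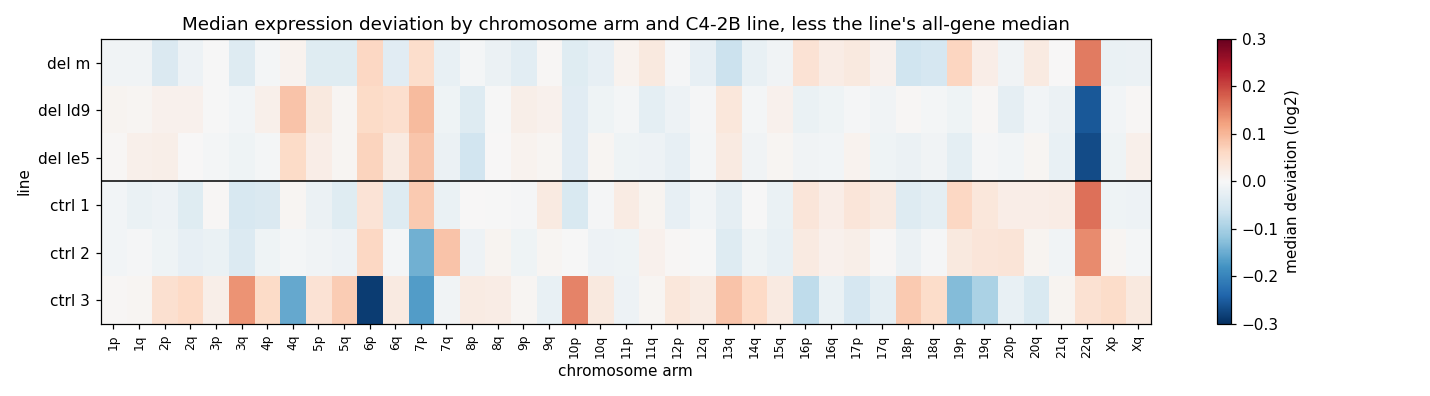
Median deviation from the 6-line mean for each chromosome arm (columns) and line (rows, deletion lines above control lines), log2, less each line's median over all genes. Deletion lines ld9 and le5 are low on 22q (-0.25 and -0.27), control lines 2 and 3 on 7p, and control line 3 on 6p (-0.29).

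For the median gene, the deletion against control contrast held 5.3% of the sum of squares over the 18 libraries, lines of the same arm held 41.8% and libraries of the same line 47.1%. Their shares of the degrees of freedom are 5.88%, 23.5% and 70.6%, so the contrast held about its own share and lines of an arm more than theirs. Without library 1 of control line 3 the shares were 7.5%, 48.3% and 35.1%. Deletion lines ld9 and le5 were the closest pair of the 15, with 130 genes over 2-fold apart. Line m differed from ld9 at 275 genes and from le5 at 307, and from control line 1 at 259, so m was no nearer to the other deletion lines than to a control line. Control lines 1 and 2 differed at 222 genes, and control line 3 differed from them at 1038 and 1009.

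Across the transcriptome, no gene passed an adjusted p of 0.05 (limma on the 6 line means, 14821 genes). At an unadjusted p under 0.05 there were 529 genes, 396 higher and 133 lower in deletion lines. The lowest adjusted p was 0.631. Deletion and control line means did not overlap at 9.48% of genes, 7.1% with the deletion lines higher and 2.38% with them lower. No gene was under 0.5 TPM in all lines of an arm and at least 5 TPM in all lines of the other. The authors' deposited table holds 1461 genes with an adjusted p under 0.05 among 17075, of which 741 were higher and 720 lower. Of the 1233 of these that were tested here, 1212 had the same direction in the line means and 449 (36.4%) had line means that did not overlap. Taking the 18 libraries as independent samples gave 213 calls, and 24 with the line kept as a random block, where all 3 fits use the same values. The random block applies 1 within-line correlation, 0.379, to every gene. For a gene whose libraries agree more closely within a line, it counts repeat libraries partly as replicates, so its p-values can be too low.

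The genes of lowest p include several with tight values within both arms. FXYD3, a regulator of the sodium pump, had 32.3, 32.3 and 31.3 TPM in deletion lines, against 17.2, 18.4 and 18.8 TPM in control lines. Its log2 fold change was 0.85 ± 0.11 (unadjusted p = 8.6e-05, adjusted p = 0.631, limma). Over its libraries, though, deletion values ran from 29.0 to 35.1 TPM and control values from 6.9 to 25.2 TPM. HGD, homogentisate dioxygenase of tyrosine breakdown, had 7.37, 6.65 and 6.10 TPM in deletion lines, against 2.69, 3.08 and 2.22 TPM in control lines. ADAMTS1, a secreted metalloprotease gene, had 146, 142 and 112 TPM in deletion lines, against 79.8, 76.1 and 82.8 TPM in control lines. PLXDC2, a membrane receptor gene, had 4.78, 4.64 and 5.68 TPM in deletion lines, against 0.71, 0.61 and 2.86 TPM in control lines. In all of these every deletion line lay above every control line. ADAMTS1 and PLXDC2 were also among the 24 genes called with the line as a random block, at adjusted p of 0.00525 and 0.0125 (limma). Calls of that fit, here and below, rest on the same lines and are no separate support. MYLK, myosin light chain kinase, averaged 37.3 ± 3.28 and 13.2 ± 9.76 TPM (SD, n = 3 lines each) in deletion and control lines. Its libraries ran from 3.31 to 89.8 TPM in deletion lines and from 2.27 to 64.2 TPM in control lines, so the libraries overlapped widely. ANKHD1-EIF4EBP3 is a readthrough transcript whose reads are shared with ANKHD1, and its estimate of 8.003, 8.48 and 7.86 TPM in deletion lines, against 3.42, 4.07 and 8.23 TPM in control lines, is uncertain. Its mean TPM overlapped between the groups, and only its means of log2(TPM + 1) did not.

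On the lower side, GNAL, a G-protein alpha subunit gene, had 2.75, 1.26 and 2.15 TPM in deletion lines, against 5.23, 6.01 and 4.36 TPM in control lines. NES, the intermediate filament gene of nestin, had 13.5, 3.84 and 7.54 TPM in deletion lines, against 26.2, 18.6 and 21.9 TPM in control lines. H19, an imprinted noncoding RNA, had 1.44, 1.92 and 1.99 TPM in deletion lines, against 7.00, 4.42 and 3.63 TPM in control lines. ST6GAL1, a sialyltransferase gene, had 5.91, 6.44 and 6.26 TPM in deletion lines, against 9.30, 9.31 and 12.9 TPM in control lines. PLXND1, a semaphorin receptor gene, averaged 6.25 ± 0.389 TPM in deletion lines and 12.3 ± 4.34 TPM in control lines (SD, n = 3 lines each). Every deletion line of these was below every control line, with unadjusted p between 0.00162 and 0.00624 and an adjusted p of 0.993 (limma). GNAL, NES and ST6GAL1 were called lower with the line as a random block. RN7SL81P, a pseudogene of an abundant noncoding RNA whose reads are shared with its copies, had 46.1, 44.1 and 34.6 TPM in deletion lines, against 54.8, 55.5 and 61.6 TPM in control lines.

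A pair of genes that neighbour each other on 15q was picked after their values were seen. ADAMTSL3, a secreted matrix protein gene, had 0.957, 0.16 and 0.32 TPM in deletion lines, against 3.52, 2.76 and 2.82 TPM in control lines. SH3GL3, an endophilin gene, had 0.34, 0.213 and 0.08 TPM in deletion lines, against 2.01, 1.82 and 1.15 TPM in control lines. Both were called lower with the line as a random block, at adjusted p of 0.00393 and 0.0121 (limma), and in the authors' deposited table, at 7.53e-08 and 1.01e-27. SPRY1, an inhibitor of receptor tyrosine kinase signalling, was the sole gene called when line m was left out. It had 17.1, 78.0 and 83.8 TPM in deletion lines m, ld9 and le5, against 16.99, 18.1 and 16.4 TPM in control lines, so m sat with the control lines.

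Androgen-responsive genes and luminal markers lay above the median of all genes without a member that passed the test. Of 28 tested androgen-responsive genes, 25 were above 0, with a list median of 0.24, where 66.3% of all genes were above 0. Line means did not overlap at 10 of the 28, 8 higher and 2 lower, against 7.1% and 2.38% of all genes. The authors' deposited table called 7 of 29 higher and 1 lower, against 4.34% and 4.22% of all genes. STEAP2, a metalloreductase gene of prostate epithelium, had 178, 189 and 163 TPM in deletion lines, against 117, 143 and 121 TPM in control lines. It was also called with the line as a random block (adjusted p = 0.0125, limma). Its libraries did not overlap, at 158 to 201 TPM in deletion lines and 115 to 145 TPM in control lines. SLC45A3, a prostate transporter gene, had 93.9, 56.8 and 59.97 TPM in deletion lines, against 41.1, 55.3 and 30.4 TPM in control lines. NDRG1, a stress-responsive gene that androgen also raises, ran the other way, with 243, 146 and 187 TPM in deletion lines, against 294, 286 and 318 TPM in control lines.

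Of the 19 tested luminal markers, 17 were above 0 with a median of 0.34, where 66.3% of all genes were above 0. FOLH1, which encodes prostate-specific membrane antigen, had 317, 364 and 398 TPM in deletion lines, against 74.2, 9.02 and 320.2 TPM in control lines, so control line 3 lay within the deletion lines. Under median-ratio scaling, where the median of all genes was 0.002, 23 of 28 androgen-responsive genes and 17 of 19 luminal markers stayed above 0. Without control line 3, also with that scaling, the counts were 21 and 15, with medians of 0.25 and 0.16.

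Genes of hypoxia and glycolysis, many of them targets of the hypoxia-inducible factors, leaned to the other side. Of 23 tested, 21 were below 0, with a median of -0.23, and none passed the test. Under median-ratio scaling all 23 were below 0, with a median of -0.31, and without control line 3 the median was -0.66. MXI1, an antagonist of MYC, had 19.5, 20.5 and 21.4 TPM in deletion lines, against 37.5, 42.3 and 21.7 TPM in control lines. ALDOC, a glycolytic aldolase gene, had 35.4, 37.8 and 39.8 TPM in deletion lines, against 87.5, 91.9 and 32.4 TPM in control lines. PDK1, which restrains pyruvate entry into mitochondria, had 29.5, 28.4 and 34.2 TPM in deletion lines, against 53.9, 63.0 and 28.9 TPM in control lines. In MXI1, ALDOC and PDK1, control line 3 lay at or beside the deletion lines and control lines 1 and 2 lay well above them. ALDOC and PDK1 were chosen after their values were seen. NDRG1, the list's member of lowest p, was instead highest in control line 3, at 318 TPM, against 294 and 286 TPM in control lines 1 and 2. In the authors' deposited table, 11 of 25 list members were called lower and none higher, against 4.22% and 4.34% of all genes.

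Lipid synthesis genes had list medians below 0. Of 24 tested genes of cholesterol synthesis and uptake, 18 were below 0 with a median of -0.17, and of 16 genes of fatty acid synthesis 13 were, with a median of -0.18. Without control line 3 the cholesterol list's median was -0.36. INSIG1, a sterol-regulated brake on this pathway, had 128, 147 and 133 TPM in deletion lines, against 376, 409 and 91.7 TPM in control lines. SCD, the stearoyl-CoA desaturase, had 214, 219 and 215 TPM in deletion lines, against 464, 534 and 176 TPM in control lines. SQLE, squalene epoxidase, had 22.2, 24.7 and 22.9 TPM in deletion lines, against 32.7, 34.8 and 27.9 TPM in control lines, so its groups did not overlap. The fatty acid elongase gene ELOVL1 did not overlap either, at 102.2, 98.5 and 96.5 TPM in deletion lines, against 104.3, 108.2 and 108.5 TPM in control lines. FDFT1, squalene synthase, had 276, 281 and 260 TPM in deletion lines, against 473, 591 and 274 TPM in control lines. ELOVL5, a fatty acid elongase gene on 6p, stood above 0, at 362, 464 and 560 TPM in deletion lines, against 391, 331 and 169 TPM in control lines. In the authors' deposited table, 12 of 25 cholesterol genes were called lower and none higher, against 4.22% and 4.34% of all genes.

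When control line 3 was left out, 5 genes passed the test (3 deletion lines against 2 control lines, limma). INSIG1, ALDOC, SCD and the glycolytic regulator PFKFB4 fell, by log2 fold changes of -1.53, -1.24, -1.21 and -1.19, and PLXDC2 rose by 1.86, with adjusted p between 0.0203 and 0.0413. PFKFB4 missed the threshold when median-ratio scaling was added. With control line 3 in the same fit on line means, none of the 5 was called; PLXDC2 was also called with the line as a random block.

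The counts that follow stand beside 66.3% of all genes above 0. Of 30 proliferation genes 17 were above 0 with a median of 0.04, and of 23 p53 targets 13 were below 0 with a median of -0.04. Under median-ratio scaling the proliferation median turned to -0.036, with 6 of 30 above 0. The 66.3% does not apply to those scaled values, whose median over all genes was 0.002. The MHC class I and antigen processing genes had a median of 0.30 over 12 tested, with B2M, the common light chain, at 346, 337 and 330 TPM in deletion lines, against 288, 292 and 293 TPM in control lines. Many of the list's genes are on 6p: TAPBP, the tapasin gene, had 25.1, 23.9 and 22.4 TPM in deletion lines, against 21.9, 21.2 and 7.79 TPM in control lines. Without control line 3 and with median-ratio scaling the list's median was 0.03. Replication-dependent histones had a median of 0.36 over 10 tested, with H2BC21 at 5.71, 8.65 and 11.8 TPM in deletion lines, against 4.43, 4.74 and 5.37 TPM in control lines. H2BC21 is on 1q, but the list also holds genes on 6p, such as H2BC11, where control line 3 was low. The histone median without control line 3 is not given here. Of 22 interferon response genes 17 were above 0, where 66.3% of all genes were. IFITM1, an antiviral membrane protein gene, was lower at 4.53, 3.15 and 2.02 TPM in deletion lines, against 7.47, 11.3 and 5.38 TPM in control lines, and PARP9 was higher at 8.89, 10.7 and 9.23 TPM, against 6.86, 6.48 and 6.62 TPM. HOX genes of the other clusters had a median of 0.21 over 12 tested. TGF-beta and BMP targets had a median of 0.18 over 11, with PMEPA1 at 245 TPM in line m, 92.7 and 94.3 TPM in ld9 and le5, and 80.7, 78.6 and 64.8 TPM in control lines.

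**Figure D4:**
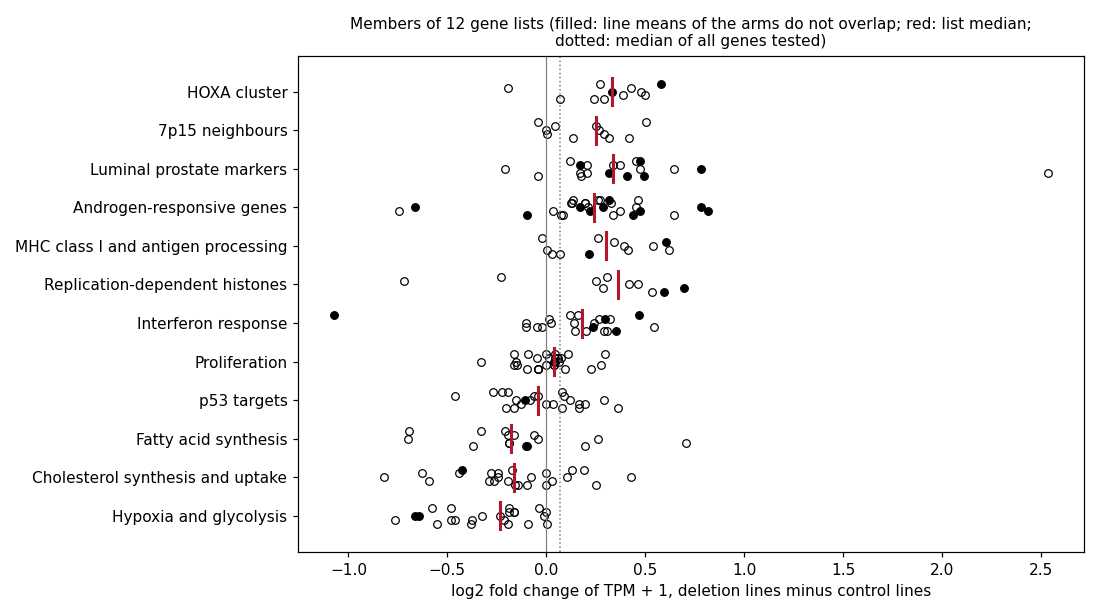
Log2 fold change of TPM + 1, deletion lines minus control lines, for the tested members of 12 gene lists; filled points have line means that do not overlap between the arms, red bars are list medians and the dotted line is the median of all genes. List medians run from 0.36 for replication-dependent histones to -0.23 for hypoxia and glycolysis, and no member passed the adjusted threshold.

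The same risk region was deleted in RWPE-1, an immortalised prostate epithelial line that is not tumorigenic, with 7 deletion and 5 control libraries. Unlike in C4-2B, each library was taken as a replicate, because the labels name no line or clone. In RWPE-1 HOXA13 rose to 8.03 ± 1.63 TPM in deletion libraries (SD, n = 7), against 1.16 ± 0.709 TPM in control libraries (SD, n = 5). Its log2 fold change was 2.09 with an adjusted p of 9.76e-05 (limma). HOXA13 started from a like level in both cell lines, 1.28 ± 0.427 TPM in C4-2B controls (SD, n = 3 lines) and 1.16 TPM in RWPE-1 controls, although each level comes from a table of its own. The effect in C4-2B minus that in RWPE-1 was -2.29, with a 95% interval of -2.90 to -1.67 and an adjusted p of 0.00453 for the interaction (limma). The difference kept its sign and its call when each line or each RWPE-1 library was left out. For HOXA11-AS, HOXA11, HOXA10 and HOXA9 the C4-2B log2 fold changes were 0.24, 0.33, 0.39 and 0.07, and these genes rose in RWPE-1 by 1.31, 0.94, 0.62 and 0.57. None of these 4 differences passed the interaction test, with adjusted p from 0.0821 to 0.806. JAZF1 had a log2 fold change of 0.13 in C4-2B and -0.12 in RWPE-1.

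With libraries taken as independent, C4-2B gave 213 calls among 14821 genes. In RWPE-1, where the library was the only unit, 10.3% of genes passed the test (1464 of 14186). Of the 1232 of these that were tested in C4-2B, 30 (2.44%) had an unadjusted p under 0.05 there (limma), against 3.57% of all genes. Of the 1232, 692 (56.2%) had the same sign in both. Of all C4-2B fold changes 66.3% were above 0, but the RWPE-1 calls ran both ways, 917 higher and 547 lower. The 66.3% is therefore no background for the 56.2%, and none was computed. In the authors' deposited tables, 255 genes were called in both cell lines, 17.5% of the C4-2B list and 8.17% of the RWPE-1 list. Among genes with an adjusted p in both tables, 20.7% of the 1233 C4-2B calls were called in RWPE-1, against 17.8% of all 15030, so the overlap was near the background in the authors' deposited tables. Of these, 119 had the same sign and 136 the opposite sign. The interaction passed the test for 0.72% of the genes tested in both (90 of 12495), of which 63 lie on chromosome 5, which holds 4.21% of the genes tested. Without deletion line ld9 or le5 the count of 90 was 11 or 16, and without control line 3 it was 256. Among named genes, DUSP1, a phosphatase gene of the immediate early response, had a log2 fold change of 0.28 in C4-2B and -0.79 in RWPE-1.

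**Figure D5:**
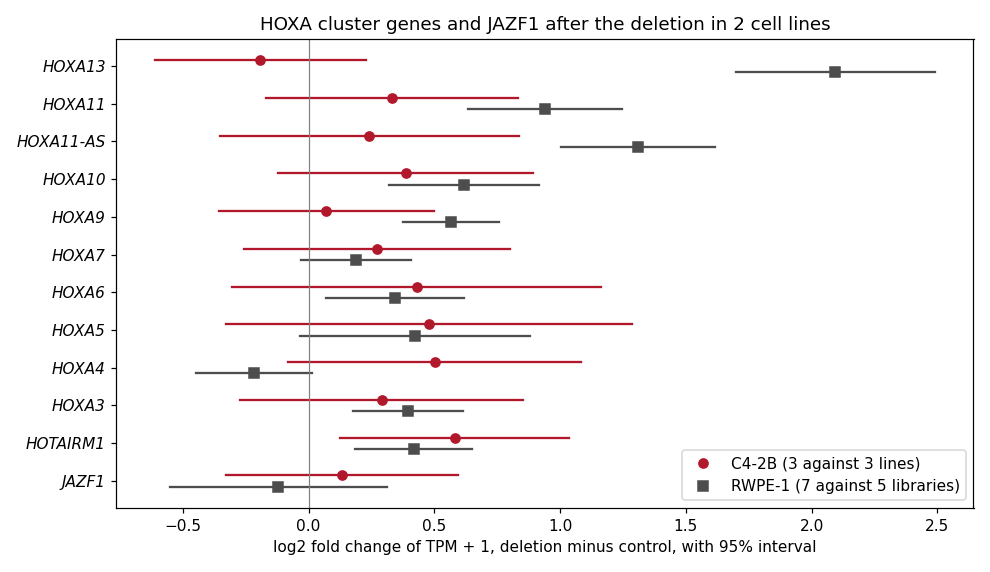
Log2 fold change of TPM + 1, deletion minus control, with 95% intervals, for HOXA cluster genes and JAZF1 in C4-2B (red circles, 3 against 3 lines) and RWPE-1 (grey squares, 7 against 5 libraries). HOXA13 stands at -0.19 in C4-2B and 2.09 in RWPE-1, with intervals that do not meet.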

How the data were processed

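TPM values per gene were deposited by the authors. Per the submitters' processing notes the tools were RSEM 1.3.0, DESeq2 1.14.1 and featureCounts 1.5.1, with STAR 2.5.2b as aligner, Trimmomatic 0.35 and FastQC, and the build was GRCh37; which tool made which table is not stated there. The authors' deposited comparison tables hold the mean normalised signal (baseMean), log2 fold changes, p-values, and a standard error and a statistic taken here as scores. Libraries were KAPA stranded mRNA, per the labels. TPM keeps no depth, so no counting interval is given.

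The 3 libraries of a line were averaged as log2(TPM + 1), and the 3 deletion lines were compared with the 3 control lines in limma 3.58.1 (R 4.3.3), with an intensity trend and Benjamini-Hochberg adjustment. Genes needed a mean of 1 TPM in 3 of 6 lines; HOXA13 and JAZF1 were kept. Fold changes on this scale understate those of low genes. RWPE-1 was fitted with single libraries as replicates (1 TPM in 5 libraries), because its labels name no line or clone. The interaction fit joined the 6 C4-2B line means with the 12 RWPE-1 libraries, so its p-values rest on unlike replicate units. HOXA13 and JAZF1 also had an exact permutation test. Repeat libraries of a line may be technical. The fits were tested on simulated data.

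Symbols came from a gene table (92.2% of 60252 IDs matched) and chromosome arms from RefSeq GRCh38.p14, used for order only. The rule for named genes took HOXA13, JAZF1, the tested HOXA genes, up to 12 called genes in each direction and, as none was called, the 6 of lowest p whose lines do not overlap and whose higher arm has at least 5 TPM, leaving out genes with a clone-based name or no symbol. It added called list members or else the 2 of lowest p, switched genes, up to 8 genes called in both cell lines, and up to 4 of lowest p on an arm that stands apart, taken as a deviation of 0.15 or more, a limit set after the values were seen. Other genes named (among them INSIG1, SCD, ALDOC, PDK1, SLC45A3, FOLH1, SPRY1, SH3GL3 and ADAMTSL3) were chosen after their values were seen. Some genes are not reported here. The members and lists were chosen with earlier results of these data known. The Hi-C and overexpression files were not used.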

Additional observations from a re-analysis of the deposited data

Results flagged for a closer look

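Among 4 measures of library makeup over the 9 libraries of each arm, 4 control values lay apart from the rest, all from library 1 of control line 3. Mitochondrially encoded genes held 28.4% of its TPM, its 10 most abundant genes held 29.8%, 13661 genes reached 1 TPM and its median-ratio size factor was 0.676. The gap to the nearest control library was 0.669, 0.531, 0.568 and 0.583 of the whole range, above Dixon's limit for 9 values. Chance flags about 1 in 20 groups of 9 independent values. Here each line gives 3 of the 9 libraries, so that rate does not hold. These measures share a library and are not independent, and no deletion library was marked. Libraries 2 and 3 of control line 3 were not marked either. Their size factors, 0.908 and 0.952, were still below those of every library of the other lines, at 1.005 or more.

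The effect of the deletion differed between C4-2B and RWPE-1 for 4 of the genes described here by the interaction test. HOXA13 had the largest such difference of the 4, at -2.29 (C4-2B minus RWPE-1, log2, adjusted p = 0.00453, limma). The others were ANKHD1-EIF4EBP3 at 1.54, DUSP1 at 1.07 and SNU13, on 22q, at -0.74, with adjusted p from 0.00655 to 0.0381. DUSP1 and ANKHD1-EIF4EBP3 are on chromosome 5, as are 63 of all 90 genes with such a difference, and the part of that chromosome in these values was not tested.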

How the results depend on the processing

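Limits: 3 lines stand for each arm, deletion lines are clones, and read depth is unknown. In C4-2B, 0 genes were called as reported and with another pseudocount (0.1 or 5), a filter of 5 TPM, median-ratio or quantile scaling, TPM without mitochondrially encoded genes, no trend or the log of mean TPM; at an unadjusted p under 0.05 there were 296 to 757 genes. There were 6 with no filter, 24 with 18 libraries and the line as a random block, 213 with libraries as independent samples, and 1461 in the authors' deposited table. Leaving out a line or library gave 0 to 5 (1 without line m, 5 without control line 3), and 4 without control line 3 under median-ratio scaling (added after seeing the data). Of list members, 2, 13, 88 and 3 were called with the random block, independent libraries, the authors' table, and without control line 3 under scaling, and 0 to 4 on leaving out a line or library.

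With the replicate number as a block beside the line, 10 genes and 1 list member were called in C4-2B and 449 in RWPE-1 (1464 without it). Same-numbered libraries of different lines had correlated deviations of -0.14 to 0.10 (median 0.00, 45 pairs), so the numbers do not pair them.

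HOXA13 kept a fold change below 0 in all settings; it was called in the authors' table (-0.52) alone. The cell line interaction was called for 23 genes with separate array weights, and for 11 to 256 on leaving out a line or library: 11 without ld9, 16 without le5, 256 without control line 3, 47, 47, 57 and 50 without RWPE-1 deletion library 1, 2, 5 or 6, and 189 without RWPE-1 control library 3. Arms that separated numbered 1 under median-ratio scaling or with each line less its median. The share of the sum of squares between arms was 7.5% without control line 3 library 1. Of the 59 named genes besides HOXA13, RN7SL81P was 0.19 in the authors' table, and without control line 3 under scaling HOXA11-AS was -0.0014 and JAZF1 -0.017. On leaving out a line or library, HOXA11-AS ranged from -0.035 to 0.47 and JAZF1 from -0.038 to 0.29 (both lowest without control line 3), and HOXA9 from -0.045 (without line m) to 0.22. The cause of these changes was not tested.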
